A study of Mus musculus with 10 samples.

Results

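Regions of open chromatin were compared with peaks of H3K27ac, the acetylated form of lysine 27 on histone H3, in control mouse retina. Open regions were merged ATAC-seq peaks on chromosomes 1 to 19 that held a peak of both control libraries: 34418 of 109126 merged regions (31.5%). They were set against all 70458 H3K27ac peaks of the control ChIP-seq library, so that 3 of the 10 samples of the series supplied the members. Each member fell into 1 of 3 classes: shared (an open region that meets an H3K27ac peak by at least 1 bp), open only, or acetylated only (an H3K27ac peak that meets no region open in both lists). The series as a whole also holds Casz1 conditional knockout samples, and genotype was not compared here.

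Both ATAC control libraries came from C57BL/6 retina labelled wild type. Explants were taken at postnatal day 2 and transfected with a plasmid for GFP without Cre. After 2 days in culture 50000 living GFP-positive cells were sorted per library, and the libraries came from separate experiment days. The H3K27ac control and the H3K27me3 control, used as a further readout, came from microdissected C57BL/6 retina at postnatal day 0, labelled wild type, with 1 library per mark. The ATAC libraries therefore hold transfected cells of older, cultured retina, and the ChIP libraries hold fixed tissue of newborn retina. In every comparison below, the assay, the age and the cell source change together and cannot be told apart.

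ATAC-seq uses the transposase Tn5, which inserts sequencing adapters where DNA is free of tightly packed nucleosomes. H3K27ac is carried by the nucleosomes that flank active promoters and enhancers, while the Polycomb repressive complex places methyl groups on the same lysine (H3K27me3), a mark of silent developmental genes. Newborn mouse retina holds late progenitors, which are making rods, bipolar cells and Müller glia, next to neurons born in the embryo. The lists come from cell mixtures, in which an open site in a few cells and a site partly open in many cells look alike.

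The ATAC lists were unequal. Replicate 1 held 39636 peaks over 11.6 Mb, and replicate 2 held 108569 peaks over 59.8 Mb. Of the replicate 1 peaks 98.6% met a replicate 2 peak, and of the replicate 2 peaks 31.7% met a replicate 1 peak. The H3K27ac list covered 54.4 Mb and the H3K27me3 list 71.6 Mb. The lists hold positions without heights or read counts, so the depth is unknown. With 1 H3K27ac library no test between groups was possible and no p-value is given. Ranges are exact Clopper-Pearson 95% intervals for counting error only, and the spread between ATAC libraries is given by each list alone.

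Of the 34418 open regions, 23400 were shared (68.0%, interval 67.5 to 68.5%) and 11018 were open only. By bases, 18.7 Mb of the 28.8 Mb of open regions lay under H3K27ac, which is 64.9% of the open bases and 34.4% of the H3K27ac bases. The share depended on the distance to the nearest end of a protein-coding gene. Within 1 kb of a gene end, 92.1% of 11439 open regions were shared (10534, interval 91.6 to 92.6%). Further away the share was lower and changed little with distance: 54.8% of 7413 regions at 1 to 10 kb, 56.1% of 8596 at 10 to 50 kb and 57.1% of 6970 beyond 50 kb. Over all 22979 regions more than 1 kb from a gene end, called distal below, 12866 were shared (56.0%, interval 55.3 to 56.6%). The gap between gene ends and distal regions was present in each ATAC list. Within 1 kb, 91.1% of replicate 1 peaks and 76.6% of replicate 2 peaks met H3K27ac. Beyond 1 kb, 50.2% of replicate 1 peaks and 31.4% of replicate 2 peaks did so. The difference between the ATAC lists was thus larger than any counting interval. Merged regions called in replicate 2 alone, 74149 in number, met H3K27ac in 24.4% of cases, and the 559 called in replicate 1 alone in 14.3%. The distal share ranged over chromosomes from 51.7% on chromosome 14 to 60.2% on chromosome 11.

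**Figure D1:**
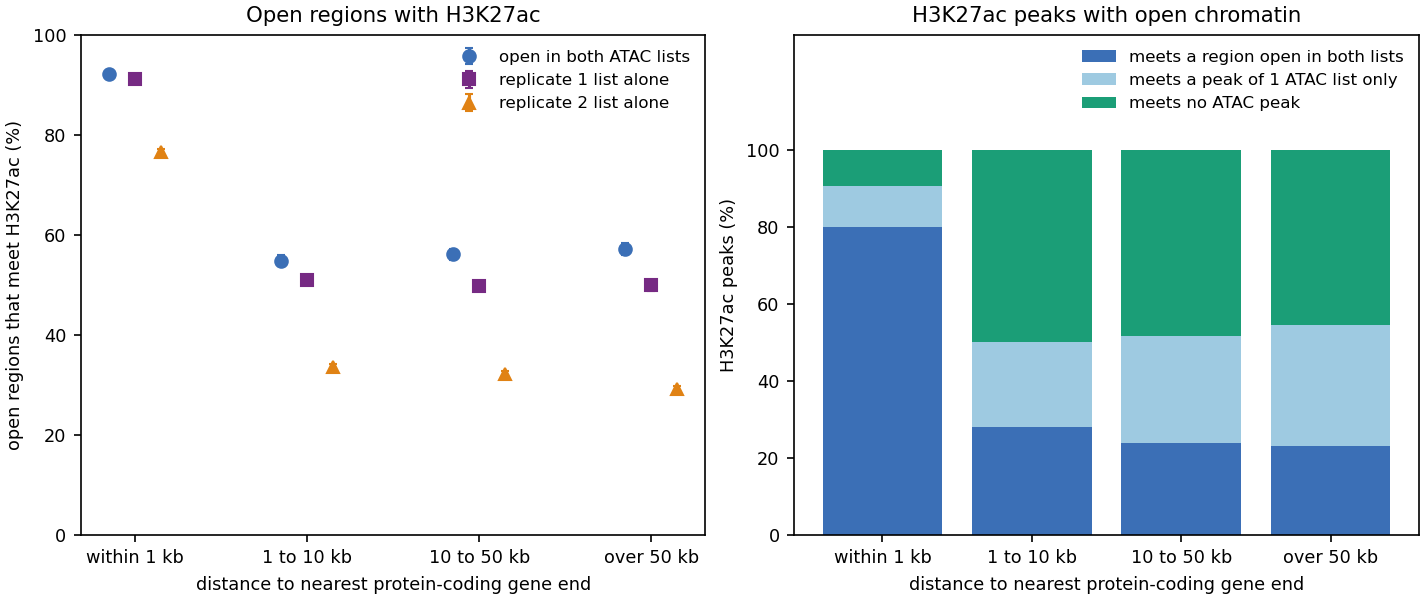
Left, percent of open regions that met H3K27ac by distance to the nearest protein-coding gene end, for regions open in both ATAC lists and for each list alone; bars are 95% counting intervals. Right, percent of H3K27ac peaks that met a region open in both lists, a peak of 1 ATAC list, or no ATAC peak; 92.1% of open regions were shared within 1 kb and 54.8 to 57.1% farther out.

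Seen from the acetylation side, 25245 of the 70458 H3K27ac peaks met an open region and 45213 were acetylated only (64.2%, interval 63.8 to 64.5%). Of these, 17015 met a peak of ATAC replicate 2 alone, 33 met a peak of replicate 1 alone, and 28165 met no ATAC peak of either library (40.0% of all H3K27ac peaks). The acetylated only share was 19.9% within 1 kb of a gene end, 71.9% at 1 to 10 kb, 76.3% at 10 to 50 kb and 77.0% beyond 50 kb. The classes therefore differed in where they lay. Gene ends held 45.0% of the shared regions, 8.21% of the open only regions and 6.29% of the acetylated only peaks.

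The narrower a region was, the less often it was shared. Shared regions held a median of 355 bp of ATAC replicate 1 peaks and 910 bp of replicate 2 peaks. Open only regions held 147 bp and 556 bp in the same libraries. When all open regions were ranked by replicate 1 bases and split into 5 equal groups, the distal share was 31.0% in the narrowest group (106 to 138 bp) and 96.4% in the widest (529 bp or more). With replicate 2 bases the distal shares were 30.8% and 92.5%. Within 1 kb of a gene end they were 51.2% and 99.9% by replicate 1 bases. A wide region can meet a peak by its edge, so the midpoint was also counted. The midpoint of the region lay inside an H3K27ac peak for 20.1% of the narrowest and 91.5% of the widest distal group by replicate 1 bases, and for 20.1% and 84.3% by replicate 2 bases. Over all open regions, midpoints were acetylated in 84.9% within 1 kb and 41.7% beyond. In every width group, the share was higher within 1 kb of a gene end than beyond.

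**Figure D2:**
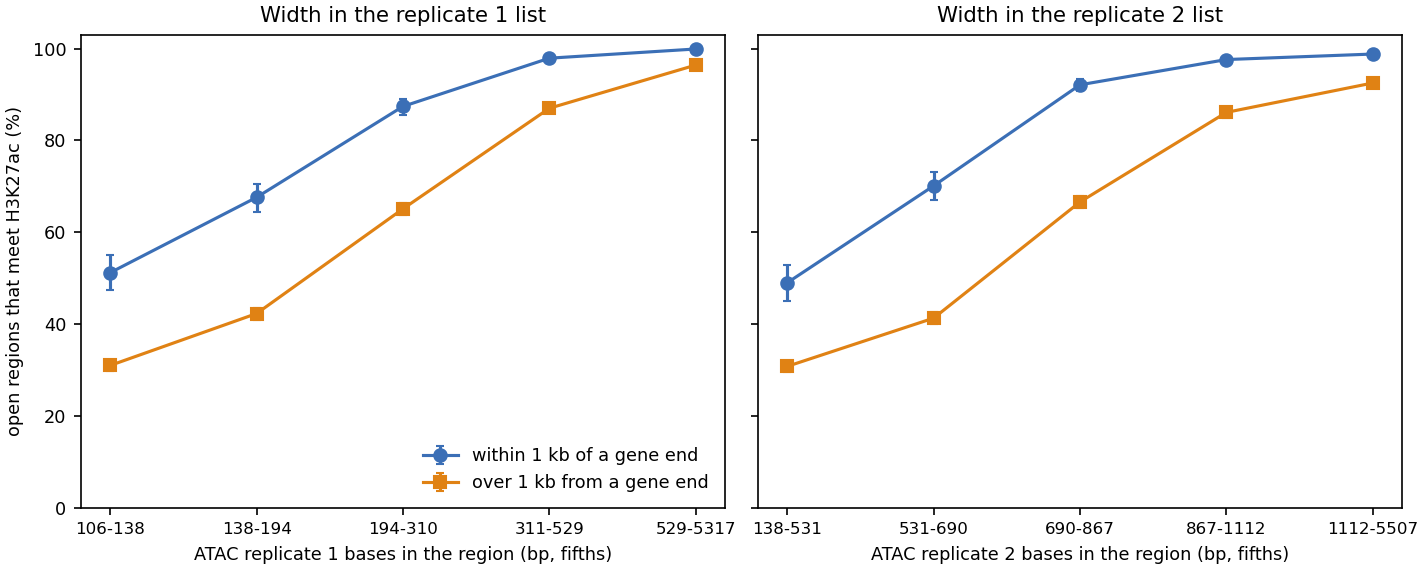
Percent of open regions that met H3K27ac against the ATAC bases in the region, in 5 groups of equal number by replicate 1 bases (left) or replicate 2 bases (right); bars are 95% counting intervals. By replicate 1 bases the share beyond 1 kb was 31.0% in the narrowest group and 96.4% in the widest.

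H3K27ac peaks showed the same dependence on width. Those that met an open region were a median of 1145 bp wide, the acetylated only peaks 265 bp, and those without any ATAC peak 218 bp. Among distal H3K27ac peaks, 93.1% of the narrowest of 5 groups (128 to 186 bp) and 29.5% of the widest (1234 bp or more) were acetylated only. Still, 629 distal peaks of at least 1000 bp met no ATAC peak of either library, which is 2.34% of the 26837 distal peaks without ATAC.

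Open only regions were rarely the edge of an acetylated domain. The median distance from an open only region to the nearest H3K27ac peak was 11.7 kb (quartiles 3.91 and 32.5 kb), and 5.71% lay within 500 bp of one. Acetylated only peaks lay a median of 8.82 kb (quartiles 2.64 and 24.8 kb) from the nearest region open in both lists. For H3K27ac peaks without any ATAC peak, the median to the nearest peak of either ATAC list was 1.41 kb. Peaks of either list are a larger set than regions open in both, so this value is not comparable with the others. Within the shared class, 49.8% of regions lay wholly inside H3K27ac and 82.4% had their midpoint inside a peak. In 1476 shared regions (6.31%) the midpoint lay between a pair of H3K27ac peaks that both met the region. The lists hold no heights, so a dip inside 1 H3K27ac peak cannot be seen. This count therefore does not measure how often acetylated nucleosomes flank an open site. Regions wholly inside H3K27ac made up 55.9% of the shared regions within 1 kb and 42.4% of those beyond 50 kb. A single H3K27ac peak met 2 or more open regions in 1008 cases, with at most 7 open regions under 1 peak.

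The Polycomb mark differed in frequency between the classes at gene ends, and was present in part of each. Within 1 kb, 18.9% of shared and 38.9% of open only regions met an H3K27me3 peak. Among distal regions the percentages were 9.79% for shared and 14.3% for open only regions. Of the acetylated only peaks within 1 kb, 30.1% met H3K27me3. The share was 49.2% for those with ATAC in replicate 2 alone and 8.28% for those without any ATAC peak. A list from mixed cells cannot tell a site that carries both marks from a site that carries them in different cells.

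Open regions at gene starts and gene stops behaved differently. For genes whose strand was known, 96.1% of 8326 open regions nearest to a 5′ end were shared (interval 95.7 to 96.5%), against 53.9% of 813 nearest to a 3′ end (interval 50.4 to 57.3%). The 3′ value was thus close to the distal share. Among H3K27ac peaks, 1180 of 9841 at 5′ ends (interval 11.4 to 12.6%) and 1003 of 1544 at 3′ ends (interval 62.5 to 67.3%) were acetylated only.

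Each of 20661 protein-coding genes was then classed by what lay within 1 kb of either annotated end, so that open chromatin and H3K27ac may lie at different ends. The ends were open and acetylated in 11421 genes (55.3%), open only in 545 (2.64%), acetylated only in 1428 (6.91%) and neither in 7267 (35.2%). These classes depended on the ATAC list. With replicate 1 alone the 4 counts were 11239, 473, 1610 and 7339, and with replicate 2 alone 12576, 1857, 273 and 5955. Of the 1428 acetylated only genes, 1155 (80.9%) had a replicate 2 peak at an end. H3K27me3 was present within 5 kb of the ends in 80.9% of open only genes, 49.6% of shared genes, 64.6% of acetylated only genes, 35.0% of genes with neither and 46.4% of all genes. Genes with neither were the shortest, with a median length of 8.59 kb against 23.8 kb for shared genes. The annotated ends are the outermost of a gene, so that an inner promoter can be missed. Gnat1, the rod transducin gene, counted as neither although its surroundings within 5 kb held 491 and 1620 bp of ATAC peaks in replicates 1 and 2 and 1975 bp of H3K27ac.

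Promoter sequence differed between the classes in its content of CpG, the dinucleotide that marks CpG islands. The RefSeq promoter table (GRCm38.p6, the assembly called mm10) held a promoter for 16456 of the 20661 genes (79.6%), and each was classed by the 300 bases around its start. The sequences below are the 250 bases before the start of 8 genes, 5′ to 3′ along the gene, with every CpG in capitals. They show shared promoters (Hes5, Crx, Gnat2), open only promoters (Wif1, Cdkn2b), acetylated only promoters (Vax1, Gad1) and 1 with neither (Grm6).
Hes5: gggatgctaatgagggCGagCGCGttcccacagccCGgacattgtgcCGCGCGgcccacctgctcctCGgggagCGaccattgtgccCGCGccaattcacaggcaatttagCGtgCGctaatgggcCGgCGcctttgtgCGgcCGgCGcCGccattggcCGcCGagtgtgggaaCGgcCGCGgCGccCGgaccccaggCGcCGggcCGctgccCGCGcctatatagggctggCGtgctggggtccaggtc
Crx: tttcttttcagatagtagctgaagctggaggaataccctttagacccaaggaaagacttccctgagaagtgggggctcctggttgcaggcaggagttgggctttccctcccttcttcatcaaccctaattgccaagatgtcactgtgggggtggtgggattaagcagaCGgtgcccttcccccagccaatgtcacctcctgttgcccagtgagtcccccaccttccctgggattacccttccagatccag
Gnat2: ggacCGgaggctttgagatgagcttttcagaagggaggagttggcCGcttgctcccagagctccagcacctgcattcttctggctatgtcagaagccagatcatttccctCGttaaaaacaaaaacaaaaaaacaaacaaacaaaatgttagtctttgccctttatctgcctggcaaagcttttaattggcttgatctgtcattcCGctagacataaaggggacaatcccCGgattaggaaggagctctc
Wif1: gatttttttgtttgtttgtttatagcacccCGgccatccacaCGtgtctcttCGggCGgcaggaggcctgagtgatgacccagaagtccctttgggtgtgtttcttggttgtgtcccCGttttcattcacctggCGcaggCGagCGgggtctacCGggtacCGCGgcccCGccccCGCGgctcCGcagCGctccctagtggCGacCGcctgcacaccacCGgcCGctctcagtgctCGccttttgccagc
Cdkn2b: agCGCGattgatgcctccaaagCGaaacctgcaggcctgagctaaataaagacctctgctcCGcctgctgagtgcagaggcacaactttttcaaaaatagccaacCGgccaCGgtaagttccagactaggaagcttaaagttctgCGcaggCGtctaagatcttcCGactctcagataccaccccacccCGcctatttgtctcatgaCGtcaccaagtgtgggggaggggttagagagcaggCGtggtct
Vax1: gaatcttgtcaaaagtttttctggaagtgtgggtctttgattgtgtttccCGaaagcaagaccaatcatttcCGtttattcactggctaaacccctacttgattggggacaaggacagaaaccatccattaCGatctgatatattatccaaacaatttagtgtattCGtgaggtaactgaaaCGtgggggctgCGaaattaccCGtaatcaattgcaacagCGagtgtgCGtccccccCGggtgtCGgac
Gad1: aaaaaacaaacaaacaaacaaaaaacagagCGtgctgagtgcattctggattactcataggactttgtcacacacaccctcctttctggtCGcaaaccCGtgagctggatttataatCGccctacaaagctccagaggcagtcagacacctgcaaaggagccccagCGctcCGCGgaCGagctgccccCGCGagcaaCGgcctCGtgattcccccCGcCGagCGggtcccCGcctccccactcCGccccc
Grm6: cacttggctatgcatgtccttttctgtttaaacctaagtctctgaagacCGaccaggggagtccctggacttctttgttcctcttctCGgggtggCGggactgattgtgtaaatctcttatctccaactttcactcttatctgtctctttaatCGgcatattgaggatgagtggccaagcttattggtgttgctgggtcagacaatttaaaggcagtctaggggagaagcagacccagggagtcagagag

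Hes5, a Notch target repressor that keeps progenitors undifferentiated, lay at chr4:154960673-154960922 on the plus strand and held 32 CpG. All 250 bases were under ATAC peaks of both replicates and under H3K27ac. Crx, the homeobox gene that drives photoreceptor differentiation (chr7:15879956-15880205, minus strand), was also shared but held 1 CpG. ATAC peaks covered 144 bp of it in replicate 1 and 250 bp in replicate 2, and H3K27ac covered 250 bp. It held 2 matches of TAATCC, the core that OTX and CRX proteins bind, and the Gnat2 and Gad1 promoters held 1 each. That core was not more frequent in the shared class, with 4.61% of shared promoters, 7.95% with neither and 5.94% of all. Gnat2, the cone transducin gene (chr3:108092816-108093065, plus strand), held 5 CpG and had 36 and 250 bp of ATAC peaks with 186 bp of H3K27ac. H3K27me3 covered 250 bp of the Gnat2 promoter and 0 bp of those of Hes5 and Crx.

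Wif1, which encodes a secreted Wnt inhibitor (chr10:121033754-121034003, plus strand), was open over all 250 bp in both replicates, without H3K27ac and with 6 bp of H3K27me3, and held 21 CpG. These bases lay in a gap between H3K27me3 peaks, which ran from -3.332 to -0.455 kb and from -0.006 to 3.998 kb of the gene start. Cdkn2b, the gene of the cell cycle inhibitor p15 (chr4:89311033-89311282, minus strand), had 99 and 250 bp of ATAC peaks and no H3K27ac. Its 250 bases lay under H3K27me3 throughout and held 12 CpG and 1 match of TGACGTCA, the cyclic AMP response element. Vax1, a homeobox gene of ventral optic development (chr19:59170398-59170647, minus strand), and Gad1, which makes the transmitter GABA (chr2:70561879-70562128, plus strand), had no ATAC peak of either list in these bases. Both were covered for 250 bp by H3K27ac and by H3K27me3, and held 11 and 17 CpG. Grm6, the glutamate receptor of ON bipolar cells (chr11:50850435-50850684, plus strand), held 4 CpG and had 195 bp of replicate 2 ATAC peaks, none in replicate 1, no H3K27ac and 250 bp of H3K27me3.

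Over the whole table, the median promoter held 18 CpG in the shared class, 11 in open only, 9 in acetylated only and 2 in neither. The median ratio of observed to expected CpG was 0.776, 0.549, 0.485 and 0.178 in the same order. Short motifs were counted on both strands in the same 250 bases, whether or not matches overlapped. GGGCGG, the GC box of Sp1 and KLF proteins, was in 64.6% of 8749 shared promoters, 48.2% of 392 open only, 51.2% of 897 acetylated only and 13.6% of 6418 promoters with neither, against 43.6% of all. CCGGAA, the core of ETS factors, was in 24.8% of shared, 10.7% of open only, 8.81% of acetylated only and 15.6% of all promoters. CCAAT, the NF-Y box, was in 37.4% of shared, 42.3% of open only, 25.5% of acetylated only and 36.3% of all promoters. TATAAA went the other way, in 5.22% of shared promoters, 7.14% of open only, 10.6% of acetylated only and 23.1% with neither, against 12.5% of all. The core of the site of the insulator protein CTCF was in 2.62% of shared and 4.08% of open only promoters, against 2.05% of all. The 392 open only promoters make that last value a count of few matches.

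Genes were next grouped by role in the retina, with the 55.3% of all genes in the shared class as background for gene ends. Distal open regions were given to the nearest gene within 100 kb, and 56.3% of the 19057 such regions were shared over all genes. Levels below are bp of peaks within 5 kb of a gene's ends, given as ATAC replicate 1, ATAC replicate 2 and H3K27ac.

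All 21 genes of retinal progenitors had an open and acetylated end, also with either ATAC list alone. Of their 83 distal open regions 74 were shared (89.2%, interval 80.4 to 94.9%). Six3, a homeobox gene that specifies the eye field, held 1276 and 3773 bp of ATAC peaks and 19565 bp of H3K27ac. Ccnd1, the cyclin D gene that drives progenitor division, held 1257 and 3736 bp with 14720 bp of H3K27ac, and 8 of its 8 distal open regions were shared. Pax6, the paired-box regulator of eye development, held 324 and 3016 bp with 12075 bp of H3K27ac, and 8 of its distal open regions were shared and 3 open only. Six3 and Pax6 thus differed in replicate 1 bases although H3K27ac was wide at both. The median H3K27ac over the list was 7567 bp, against 1232 bp over all protein-coding genes, with 895 and 3016 bp of ATAC peaks against 396 and 1264 bp.

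Of 20 neurogenic progenitor genes, which are switched on as progenitors leave the cycle, 18 were shared and 2 acetylated only, and 51 of 57 distal open regions were shared (89.5%, interval 78.5 to 96.0%). Neurod1, a helix-loop-helix activator of photoreceptor and amacrine fates, held 1263 and 5151 bp of ATAC peaks and 9529 bp of H3K27ac. Dll1, a Notch ligand, held 983 and 4075 bp with 10121 bp. The exceptions were Otx2 and Prdm13, regulators of photoreceptor and bipolar fate and of amacrine fate. Otx2 held 517 and 5041 bp of ATAC peaks and 9860 bp of H3K27ac within 5 kb, and H3K27me3 covered 20000 bp of its windows. With the replicate 2 list alone all 20 genes were shared.

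Late temporal identity genes, which mark late progenitors and include Casz1 itself and the nuclear factor I genes, were shared in 8 of 10 cases and acetylated only in 2, and 47 of 53 distal open regions were shared (88.7%). Of those 47 regions 19 belonged to Casz1. The early temporal genes, active in embryonic progenitors, were shared in 10 of 11 cases, and 18 of 28 distal open regions were shared (64.3%, interval 44.1 to 81.4%). Müller glia genes, many of them also on in progenitors, were shared in 19 of 24 cases, with 55 of 68 distal open regions shared (80.9%, interval 69.5 to 89.4%). Slc1a3, the glial glutamate transporter, held 899 and 2790 bp of ATAC peaks and 9098 bp of H3K27ac. Aqp4, a water channel of mature glia, was in neither class, with 0 and 549 bp of ATAC peaks and 315 bp of H3K27ac.

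Genes of mature photoreceptors gave a mixed picture. Of 20 rod genes 6 were shared, 1 open only, 5 acetylated only and 8 neither, and 14 of 23 distal open regions were shared (60.9%, interval 38.5 to 80.3%). With replicate 2 alone the 4 counts of rod genes were 9, 4, 2 and 5. Nrl, the leucine zipper factor that sets rod fate, held 818 and 2980 bp of ATAC peaks and 7576 bp of H3K27ac. Nr2e3, a nuclear receptor that represses cone genes in rods, was open only at its ends, although 2061 bp of H3K27ac lay within 5 kb. Among 14 cone genes 6 were shared, 1 was open only, 2 acetylated only and 5 neither, and with replicate 2 alone 7, 4, 1 and 2. Just 1 of 10 distal open regions of cone genes was shared (10.0%, interval 0.253 to 44.5%), from 7 genes. Those 10 regions included 2 open only regions of Thrb, the thyroid hormone receptor that directs M cone fate, beside its 1 shared region, and 2 open only regions of Rxrg, a retinoid receptor of cones. Of 9 regulators of photoreceptor fate 5 were shared, and 25 of 33 distal open regions were shared (75.8%). Crx among them held 1120 and 2975 bp of ATAC peaks and 11846 bp of H3K27ac.

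Of 16 bipolar genes 6 were shared, 3 acetylated only and 7 neither, and regulators and genes of mature cells stood in more than 1 class. Shared were the developmental regulators Irx5, Bhlhe22, Irx6 and Isl1 and the kinase gene Prkca, among others. Acetylated only were the regulators Lhx4 and Otx2 and the signalling gene Gpr179. The regulators Vsx1 and Bhlhe23 were neither, with 0 bp of replicate 1 ATAC peaks and no H3K27ac. Genes of mature bipolar cells were also among those with neither: Grm6 held 0 and 1661 bp of ATAC peaks and no H3K27ac, and Cabp5, a calcium-binding protein gene, held 0 and 530 bp and none. With replicate 2 alone 9 bipolar genes were shared, 6 open only and 1 neither. H3K27me3 was present in the windows of 15 of the 16, against 46.4% of all genes. This was not particular to the bipolar list. The counts were 19 of 21 for retinal progenitor, 17 of 19 for amacrine and 10 of 11 for horizontal cell genes.

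For neurons born in the embryo, 10 of 20 ganglion cell genes, 11 of 19 amacrine genes and 7 of 11 horizontal cell genes were shared. With replicate 2 alone the shared genes were 14, 14 and 7, the open only genes 5, 4 and 3, and none was left with neither. The shares of their distal open regions were 56.8%, 63.0% and 65.5%, and the intervals of all of these held the 56.3% of all genes. Acetylated only ganglion genes included Sncg, the gamma-synuclein gene (0 and 965 bp of ATAC peaks, 1188 bp of H3K27ac), and Gap43, a growth cone protein gene (0 and 1199 bp, 2356 bp). Pou4f2, a regulator of ganglion cell fate, was neither, with 0 and 1784 bp of ATAC peaks, no H3K27ac and 13638 bp of H3K27me3. Other regulators were among the 10 shared ganglion genes: Pou4f1 (808 and 2847 bp, 865 bp of H3K27ac), Isl1 (390 and 2933 bp, 892 bp) and Sox11 (700 and 2864 bp, 6359 bp). Acetylated only amacrine genes were the AP-2 factor gene Tfap2a, Prdm13, and the GABA pathway genes Gad1 (120 and 1297 bp, 5183 bp of H3K27ac) and Slc32a1 (248 and 3453 bp, 5825 bp). Gad2, also a GABA pathway gene, was shared (187 and 2320 bp, 6722 bp), as were Pax6, Meis2, Barhl2, Tfap2b and Bhlhe22, among others. Open only were Calb2, the calretinin gene, in the amacrine list, and Onecut3, a cut homeobox gene, and Calb1, the calbindin gene, in the horizontal list. Calb1 held 139 and 1911 bp of ATAC peaks and no H3K27ac within 5 kb. Onecut2, Prox1, Foxn4 and Ptf1a were among the 7 shared genes of the horizontal list.

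Housekeeping genes were shared in 17 of 18 cases, cell cycle genes in 25 of 27, and immediate early and stress response genes in 23 of 28. Among the last group Atf3, a stress-induced factor gene, was open only, with 441 and 2146 bp of ATAC peaks, no H3K27ac and 10000 bp of H3K27me3, and so was Egr3, an activity-induced factor gene (546 and 2255 bp, 866 bp of H3K27ac). Fos, the prototype immediate early gene, was shared, and so was Fosb. The explants had been dissociated and sorted and the ChIP tissue had not, and whether this bears on these genes was not tested. Polycomb and NuRD subunit genes were shared in 22 of 25 cases.

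Genes of other lineages stood at the opposite end. None of 39 Hox genes, which pattern the body axis, was shared, 8 were open only and 31 neither. All 39 carried H3K27me3, against 46.4% of all genes. With replicate 2 alone 31 were open only and 8 neither. Hoxa3 held 181 and 3178 bp of ATAC peaks, no H3K27ac and 20000 bp of H3K27me3, and Hoxc13 held 343 and 1618 bp, none and 17683 bp. The 27 regulators of non-neural organs gave 1 shared, 4 open only (Gata6, Tbx20, Hand1 and Tal1), 1 acetylated only and 21 neither. Of their 37 distal open regions 12 were shared (32.4%, interval 18.0 to 49.8%). Gata6, a regulator of endoderm and heart, held 244 and 2158 bp of ATAC peaks, no H3K27ac and 10000 bp of H3K27me3. With replicate 2 alone 17 of the 27 were open only.

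Markers of cells outside the neural retina were set beside the 35.2% of all genes with neither signal. The class neither held 7 of 9 erythroid genes, 13 of 19 liver and muscle genes, 12 of 18 lens and cornea genes, 9 of 16 vascular genes and 9 of 16 microglia and macrophage genes. Of 13 pigment epithelium genes 3 were shared, 3 open only and 7 neither. With replicate 2 alone the genes with neither were 7 erythroid, 8 liver and muscle, 7 lens and cornea, 5 vascular, 7 microglia and macrophage and 3 pigment epithelium genes. The background for these counts is the 5955 of all 20661 genes with neither by replicate 2 alone. Against it, the vascular share was near the background and the pigment epithelium share was below it. Rpe65, the defining isomerase gene of that layer, and the erythrocyte globin genes Hbb-bs and Hbb-bt held 0 bp of ATAC peaks in both replicates and 0 bp of H3K27ac. Kdr, the vascular VEGF receptor gene, was shared, with 518 and 2194 bp of ATAC peaks and 5924 bp of H3K27ac. The part of such cells in the results was not tested.

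**Figure D3:**
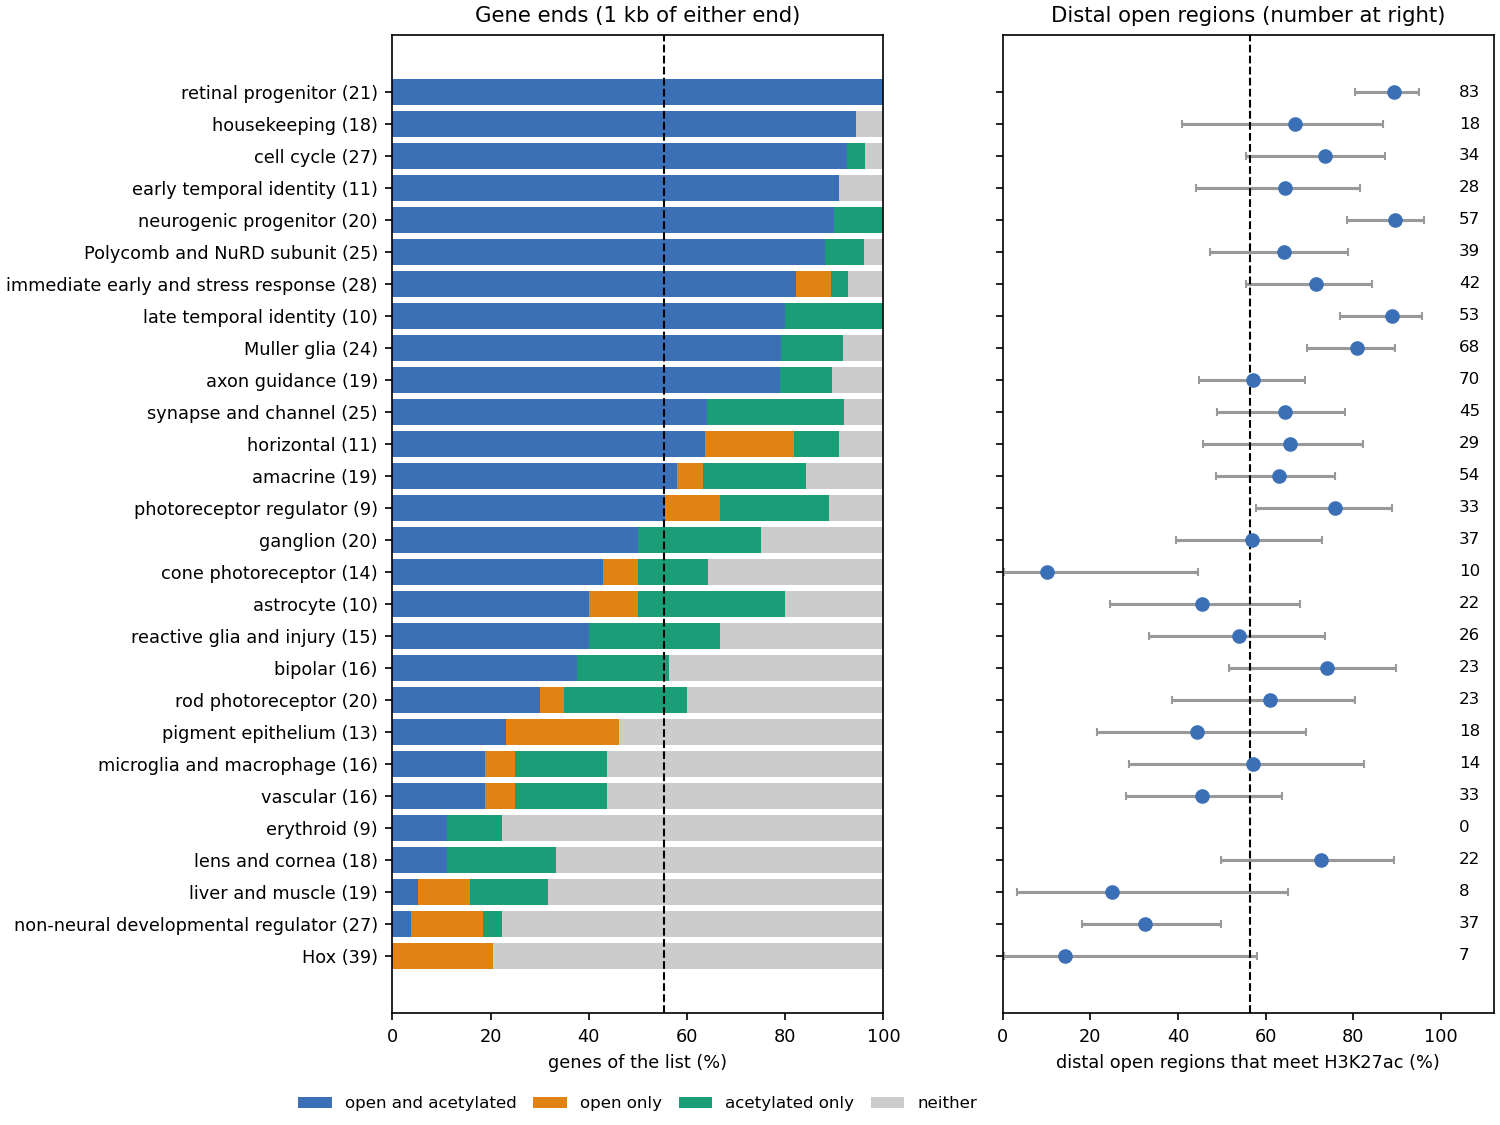
Left, percent of the genes of each list (number in brackets) whose ends were open and acetylated, open only, acetylated only or neither; the dashed line is the 55.3% of all genes that were shared. Right, percent of the distal open regions of each list that met H3K27ac, with 95% counting intervals and the number of regions; the dashed line is the 56.3% of all genes, with retinal progenitor genes at 89.2% and cone photoreceptor genes at 10.0%.

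By number of distal shared regions, Casz1 led all genes with 19, none of its distal open regions being open only. Another 52 distal H3K27ac peaks at Casz1 were acetylated only. Gse1 followed with 16, then Chd7 with 15, Coro2b and Atg7 with 14, Maml3, Ccdc85c and Cstad with 13, and Nol4l with 12. Chd7 encodes a chromatin remodeller and Maml3 a coactivator of Notch. Casz1, Chd7, Coro2b, Ccdc85c and Cstad had no distal open only region. Acetylated only distal peaks were most numerous at Msi2, an RNA-binding protein gene of progenitors, with 80 peaks over a gene of 378.9 kb and 9 shared regions. Ano1, a chloride channel gene, had 75 such peaks, the guidance signalling gene Srgap3 70, Chd7 68 and Zfp532 67. Rad51b (64), Sipa1l3 (60), Lrrc49 (60) and Rgs3 (59) were also among the first 10. Chd7 stood on both lists. These are long genes, from 100.9 kb (Lrrc49) to 551.0 kb (Rad51b), and counts were not divided by length.

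Distal open only regions were fewer per gene. Gas8 had 10, Gli2 8, Speer4c 8, and Ctif, Pkdcc, Rpia, Mvb12b, Gm17019 and Rhou had 7 each, followed by Agap3 with 6. Gli2, the transcription factor gene of Hedgehog signalling, had 8 shared regions beside its 8 open only ones. Speer4c and Gm17019 belong to families of near-identical copies, where reads cannot be placed with certainty, and their counts are uncertain. Pkdcc, a kinase gene of limb and bone growth, had 2 shared and 7 open only regions.

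The regions of Gas8 and some of Rhou lay in the array of 5S ribosomal RNA genes on chromosome 8 (123538784 to 123622046, 83.3 kb, 48 genes). The array held 15 regions open in both lists, each containing a 5S gene, of 106 to 202 bp in replicate 1 and 262 to 368 bp in replicate 2. None of the 15 met H3K27ac, which covered 130 bp of the array, and H3K27me3 covered 100% of it. The copies of the array are near-identical, so which copies carried the signal is uncertain, for ATAC as for H3K27me3. Transfer RNA genes, the other main class copied by RNA polymerase III, differed from the 5S genes, but widths were not matched. The array regions were narrow, and narrow open regions were less often shared in general. Of 391 tRNA genes 190 had an open region within 250 bp, and 159 of these (83.7%, interval 77.6 to 88.6%) also had H3K27ac within 250 bp. The same share was 5.88% of 17 open rRNA genes, 87.0% of 54 open snRNA genes and 83.3% of 48 open snoRNA genes.

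**Figure D4:**
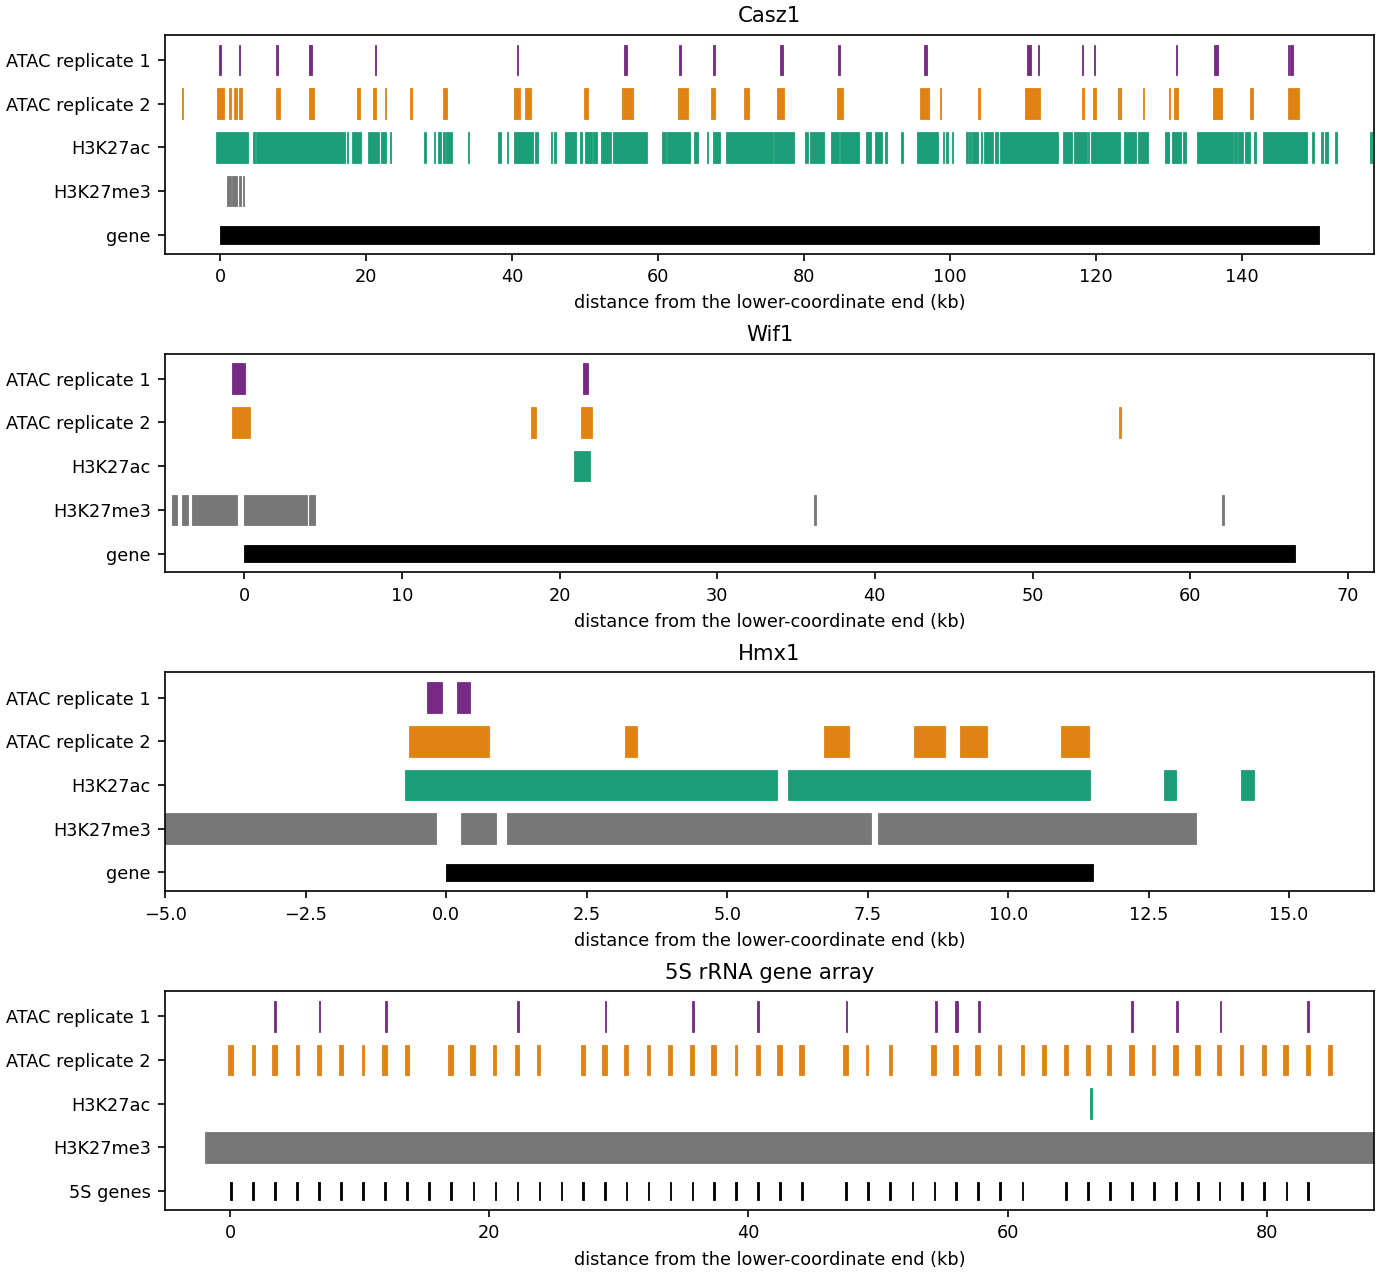
Peaks of ATAC replicate 1, ATAC replicate 2, H3K27ac and H3K27me3 at Casz1, Wif1, Hmx1 and the 5S rRNA gene array, with the distance from the lower-coordinate end in kb; black boxes are the annotated genes. H3K27ac spans much of Casz1, is absent at the start of Wif1, covers most of Hmx1 and reaches 130 bp of the array, where ATAC replicate 2 peaks recur at the 5S genes.

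Among single regions, the widest open only region at a gene end lay at Wif1 (chr10:121033198-121034363), with 862 and 1166 bp of ATAC peaks in replicates 1 and 2. The nearest H3K27ac peak was 20584 bp away. Inside Wif1, 1 distal region was shared. Next came 4931408C20Rik (690 and 651 bp), Cdkn2b (573 and 1074 bp), Ppp1r3b, a glycogen phosphatase subunit gene (535 and 1535 bp), Napsa (532 and 752 bp), Reep4, Cpm, Nkpd1, Glra3 and Tcaf2. Of these 10 regions 6 met H3K27me3: those at Wif1, Cdkn2b, Ppp1r3b, Napsa, Cpm and Nkpd1. Over all open only regions within 1 kb of a gene end 38.9% did so. The widest distal open only regions had Esp38 as nearest gene (chr17:39843063-39848765, 5317 and 5507 bp), then Col19a1 (4574 and 4458 bp), Gm2244 (3763 and 3353 bp) and Alkbh8 (2052 and 2729 bp, 332 kb away). The others were nearest to Ly6c2, Alkbh8 again, Myo3a, Vmn1r2, Agap1 and Gm51877. Of these 10, 3 lay inside a gene (Myo3a, Agap1 and Sfi1). Whether any of the 10 is repeated sequence was not tested, and regions prone to mapping artefacts were not removed here. The signal at these regions is therefore uncertain.

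The widest acetylated only peaks were single H3K27ac calls that met no region open in both ATAC lists. An H3K27ac call close by can still hold ATAC peaks of both lists. A peak of 10071 bp inside Pmepa1, an inhibitor gene of TGF-beta signalling, held no replicate 1 and 1503 bp of replicate 2 ATAC peaks. A peak of 8388 bp (chr8:123425927-123434314), 3.91 kb from the neuronal tubulin gene Tubb3, held no ATAC peak of either list. Zeb2, a repressor gene of neural development, held 8373 bp with 0 and 2518 bp of ATAC peaks. Further distal peaks lay at Cxxc5, Pitrm1 (in Pfkp), Wasf3, Eml1, Casz1, Smim38 (in Tpcn2) and Arid1b, between 5732 and 7450 bp. The Casz1 peak ended 75.706 kb from the lower-coordinate end. The next H3K27ac peak began at 75.868 kb and held ATAC peaks of both replicates. Within 1 kb of a gene end the widest was at Hmx1, a homeobox gene of eye development, with 5381 bp of H3K27ac and 0 and 1986 bp of ATAC peaks. It began 6.072 kb from the lower-coordinate end. The H3K27ac peak before it, from -0.73 to 5.889 kb, held ATAC peaks of both replicates. Zfhx4 (4364 bp), Omg, Gm46294, Pcdh7, Igfbp2, Cdk5rap3, Slc32a1, Nhlh2 and Vax1 followed, down to 3496 bp. All 10 held replicate 2 ATAC peaks, from 250 bp at Cdk5rap3 to 2344 bp at Nhlh2, the gene of a neuronal helix-loop-helix factor. Those at Hmx1, Zfhx4, Pcdh7, Slc32a1, Nhlh2 and Vax1 met H3K27me3, as did 30.1% of all acetylated only peaks within 1 kb of a gene end.

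The widest shared regions at gene ends, by the smaller of both ATAC widths, were at LOC108167694, Peg3, Elf2, Dipk2a, Trib1, Med12l, Agbl5, Cecr2, Rev3l and Kmt2e. Peg3, an imprinted gene, held 1893 and 2440 bp of ATAC peaks under 2003 bp of H3K27ac, and Kmt2e, a chromatin regulator gene, 1548 and 2173 bp under 2173 bp. Distal ones included regions nearest to Tcte2, Zfp825, Gm39469, Cpeb2, Tmem125, Numa1, Zfp958, Impact and Rfx3. The Tcte2, Zfp825 and Gm39469 regions had more ATAC than H3K27ac bases, with 2261, 1679 and 1601 bp in replicate 1, 2443, 2413 and 1649 bp in replicate 2 and 1701, 732 and 335 bp of H3K27ac.

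MicroRNA hairpins could be classed as well: of 1136, 109 were shared, 10 open only, 82 acetylated only and 935 neither, by regions within 250 bp. The sequences of those known in retina, chosen after their values were seen, are given with the seed (bases 2 to 8) in capitals, from RefSeq on GRCm38.p6. They are shown because their hairpins fell into different classes, even where the mature sequence is the same.
miR-9-5p: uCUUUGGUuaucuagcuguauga
miR-183-5p: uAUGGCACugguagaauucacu
miR-96-5p: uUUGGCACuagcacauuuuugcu
miR-182-5p: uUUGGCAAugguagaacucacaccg

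The hairpins Mir9-2 on chromosome 13 and Mir9-3 on chromosome 7 give the same mature miR-9-5p, a regulator of neural progenitors. Mir9-3 was shared, with 34 and 393 bp of ATAC peaks in replicates 1 and 2 and 590 bp of H3K27ac. Mir9-2 was acetylated only, with 0 and 65 bp of ATAC peaks and 572 bp of H3K27ac. The cluster of Mir183, Mir96 and Mir182 on chromosome 6 gives sensory-organ microRNAs whose seeds differ from each other as printed. Mir183 (40 and 192 bp, 570 bp of H3K27ac) and Mir96 (262 and 414 bp, 493 bp) were shared, and Mir182 had 0 bp of each. The neuronal Mir124a hairpins split likewise: Mir124a-3 was shared (147 and 284 bp, 568 bp), while Mir124a-1 and Mir124a-2 had 0 bp of ATAC peaks in both replicates and 585 and 609 bp of H3K27ac. H3K27me3 covered 590 bp around Mir9-3, 570 bp around Mir183, 606 bp around Mir96 and 568 bp around Mir124a-3, the shared ones among these hairpins. It covered 0 bp around Mir9-2, Mir124a-1 and Mir124a-2, the acetylated only ones, and around Mir182. This split holds for the picked hairpins and not for hairpins in general. The shared hairpins Mirlet7i and Mir210 had 0 bp of H3K27me3, and the acetylated only Mir137 and Mir125b-1 had 573 and 577 bp.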

How the data were processed

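Peak lists of 2 ATAC-seq control libraries, 1 H3K27ac control library and 1 H3K27me3 control library were used, and groups were taken from the sample titles. As deposited by the authors, each file is a list of peak positions with a score of 0 in every row, and so without heights, p-values or read counts. The submitters' processing notes name Bowtie2, MACS2, deepTools and mm10, with no versions. Not given in the sources used here are the peak threshold, the handling of duplicates, a shift of reads for Tn5 and the role of input. The peak names point to 1 set of aligned reads per list, which makes the calls per library and not pooled. Depth is thus unknown, and a library sequenced more deeply can give a longer list.

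ATAC peaks on chromosomes 1 to 19 that overlapped were merged, and a region was open where it held a peak of both lists. Overlap meant at least 1 bp. Distances ran to the nearest start or end of a protein-coding gene in the GRCm38.p6 gene table of RefSeq, which is the mm10 assembly. Ends were told apart as 5′ or 3′ only where the promoter table gave a strand. That table also gave the promoter sequences, and exons and introns were not assigned. Shares carry exact Clopper-Pearson 95% intervals. No test between groups was run, since H3K27ac has 1 library. Whether replicates were separate animals is not given, so their spread may be technical.

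The members, the 28 gene lists (519 of 532 entries matched, 3 by an older symbol, 479 genes) and the tests were chosen with earlier results of these data known. Named were the 10 genes with the most distal regions of each class, the 10 widest regions of each class within and beyond 1 kb of a gene end, and up to 6 genes per list and class by summed bases of ATAC and H3K27ac peaks. Genes outside that rule (Cabp5, Fos, Fosb, Hbb-bt, the printed promoters, the 5S array and the microRNAs) were chosen after their values were seen. Some genes that the rule took are not reported here. Counting was tested on simulated peak lists. Python 3.11.15, pandas 2.3.3, numpy 2.4.6, scipy 1.17.1 and matplotlib 3.10.9 were used. Alternatives were a larger or looser overlap, wider peaks only, equal ATAC list lengths, chromosome X, the bases common to both ATAC lists, each ATAC list alone and a gene end limit of 2.5 kb. Counts per gene list for each ATAC list alone were added after the data were seen.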

Additional observations from a re-analysis of the deposited data

How the results depend on the processing

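In all, 58 values of 7 results were recomputed under 9 alternatives, and the gene-end share stayed above the distal share in each. A percentage was taken as moved when it changed by more than the SD between the single ATAC lists, which was 18.2 points for all open regions, 10.3 within 1 kb and 13.3 beyond, and 21.0 for acetylated only peaks. A count was taken as moved when it changed by more than 1.5 times. By these measures 45 values stayed and 13 moved, whereas 29 of 34 percentages left the much narrower counting interval. The SD is a wide limit, since it comes from the single lists, which are themselves among the 9 alternatives. The share of all open regions, 68.0% as reported, counted as stayed at 81.0% with equal list lengths and at 85.1% with wider peaks only. Leaving out 1 ATAC library in turn gave 38.2% to 64.0% of open regions shared, 76.6% to 91.1% within 1 kb and 31.4% to 50.2% beyond, with 25348 to 41478 shared and 14288 to 67091 open only regions, and 28206 to 49093 H3K27ac peaks acetylated only (40.0% to 69.7%). The lower percentages and the higher counts of regions belong to the longer replicate 2 list, without replicate 1, and so do 28206 and 40.0%. With the wider 50% of each list, 15196 regions were shared and 2661 open only, 19487 peaks were acetylated only, and the distal share was 73.1%. With ATAC lists of equal length by width, 4736 regions were open only and the distal share was 70.3%. The lists hold no scores, so width took the place of a stricter threshold. Requiring H3K27ac over 50% of the region gave 57.2% shared. No paired analysis was possible because H3K27ac has 1 library and no result comes from a test. Midpoints, and counts per gene list for each ATAC list, were added after seeing the data. Peak depth being unknown, a missing peak is not shown to be absent signal.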
